A study of Homo sapiens with 7 samples.

Results

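The BCL2 family genes described here are 10 genes taken by symbol, and they were chosen with earlier results of these data known. They are the anti-apoptotic genes MCL1 and BCL2L1, the pore-forming effectors BAX and BAK1, and the BH3-only genes BCL2L11, BID, BBC3, BAD, PMAIP1 and BIK. All 10 had a read in each of the 6 mRNA libraries, out of 15659 gene symbols with a read in at least 1 library. The libraries came from HCT116 cells, a human colorectal carcinoma line, that carry a knockout of DROSHA, which encodes the RNase that releases microRNA hairpins from primary transcripts. The tested group was transfected with miR-148a-3p (3 libraries), and the other group with a control miRNA (3 libraries), and RNA was taken 48 h later. Both groups carry the knockout, and neither the number of knockout clones nor the control sequence is given in the labels. A small RNA library of wild-type HCT116 cells (1 library, no transfection label) gives the level of miR-148a-3p in the parental line.

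BCL2 proteins decide whether the outer mitochondrial membrane is opened during apoptosis. BAX and BAK1 form pores that release cytochrome c, MCL1 and BCL2L1 (BCL-XL) bind and restrain them, and BH3-only proteins either activate the effectors or occupy the anti-apoptotic proteins. HCT116 cells are deficient in mismatch repair, and an allele of BAX carries a frameshift in a coding repeat. In RefSeq (GRCh38.p14) MCL1 spans chr1:150574558-150579610 and BCL2L1 chr20:31664452-31723963. The effectors span chr19:48954875-48961798 (BAX) and chr6:33572552-33580276 (BAK1). Of the BH3-only genes, BCL2L11 spans chr2:111120914-111168445, BID chr22:17734138-17774665, BBC3 chr19:47220824-47232860, BAD chr11:64269828-64284704, PMAIP1 chr18:59899996-59904305 and BIK chr22:43110750-43129712. MicroRNA-148a has been reported to repress BCL2 in colorectal cells and Bcl2l11 (Bim) in mouse lymphocytes.

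The added microRNA is shown with the microRNAs that share its seed, because the seed sets which transcripts a microRNA can pair with. Sequences are from RefSeq (GRCh38.p14), 5′ to 3′, and capitals mark the seed, bases 2 to 8.
hsa-miR-148a-3p: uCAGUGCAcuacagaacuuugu
hsa-miR-148b-3p: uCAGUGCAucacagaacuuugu
hsa-miR-152-3p: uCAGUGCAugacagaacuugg
They are encoded at chr7:25949922-25949943 (minus strand), chr12:54337278-54337299 (plus strand) and chr17:48037174-48037194 (minus strand). In the wild-type library the first was counted 253510 times, the second 7365 times and the third 189 times, of 3627859 microRNA counts. Of these microRNAs the parental line therefore held almost entirely miR-148a-3p, at 6.99% of microRNA counts (Wilson 95% interval 6.96% to 7.01%, counting error only). Counts sum the isoforms of each name, and isoforms with a shifted 5′ end, and so another seed, were not set apart. No 3′ end of a member's transcript was read for seed matches here.

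The miR-148a-3p libraries held 1564125, 842294 and 630142 counts, and the control libraries 1069154, 876131 and 890849. DROSHA was counted 20, 15 and 13 times with miR-148a-3p and 31, 16 and 16 times with the control; these reads lie near the 3′ end and do not check a deletion elsewhere in the gene. Of the colon epithelium markers KRT18 was counted 594 to 1757 times per library, KRT19 293 to 741 and KRT8 89 to 178, whereas CDH1 had 1 to 13 reads, VIL1 at most 2, and 6 of 14 markers (KRT20, CDX1, CEACAM5, GPA33, CDH17 and MUC2) none. The colon epithelium markers summed to 1022 to 2740 counts with miR-148a-3p and 1473 to 2069 with the control. On the scaled level (CPM, defined below) KRT8 was at 105, 105 and 158 with miR-148a-3p, against 148, 182 and 202 with the control, a log2 change of −0.55 (adjusted p = 0.626 by edgeR); its part in the results was not tested. Of 12 blood cell markers CD68 alone was counted, at 2 to 10 reads, with PTPRC at 0 in every library, and COL1A1 was the 1 fibroblast gene with more than 5 reads in a library. Control replicate 1 (−31.4) and miR-148a-3p replicate 3 (34.2) lay at the opposite ends of the first principal component, with 29.8% of the variance, against −8.29 to 13.1 for the other libraries. The change of each member is also given without control replicate 1. Without miR-148a-3p replicate 3 the log2 change was −0.42 for BAK1, −0.02 for BBC3 and, with its sign turned, 0.06 for BID. In bulk libraries, fewer cells with a transcript and less transcript per cell cannot be told apart.

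At baseline, in the control libraries, 4 of the genes formed an abundant tier: MCL1, PMAIP1, BCL2L1 and BBC3. Levels are given as CPM, read counts scaled by TMM normalisation to a common library size. Since reads come from the 3′ end of transcripts, CPM was not divided by transcript length, and all comparisons of level between genes below are on this CPM scale of 3′ end counts. MCL1 was at 314 ± 67.7 CPM, PMAIP1 at 198 ± 67.2 CPM, BCL2L1 at 183 ± 25.0 CPM and BBC3 at 182 ± 47.6 CPM (mean ± SD, n = 3). The ranges of neighbours in this order overlapped among the control libraries, so the order of neighbours within the tier is not resolved. MCL1 at its lowest control value (236 CPM) lay above the highest control values of BCL2L1 (202 CPM) and, narrowly, BBC3 (235 CPM). MCL1 ranked 531 among the 15659 gene symbols by mean control level.

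The other 6 genes were lower than every value of that tier in the control libraries. BCL2L11 (BIM), which activates BAX and BAK1 directly, was at 37.3 ± 11.1 CPM. BID, which is cleaved by caspase-8 and links death receptors to mitochondria, was at 29.8 ± 5.09 CPM. BAD, which binds BCL-XL and is held inactive by phosphorylation, was at 23.3 ± 3.33 CPM, and the effector BAK1 at 22.0 ± 4.85 CPM (SD, n = 3 each). Control ranges of neighbours overlapped in these 4 genes as well. BAK1 was above BIK in every control library. BIK, a BH3-only protein of the endoplasmic reticulum, was at 11.3 ± 4.91 CPM, and BAX at 8.12 ± 3.08 CPM, with overlapping ranges between the pair. How reads were assigned to genes is not given in the sources used here, and whether all 3′ end reads of BAX were counted was not tested, which bears on its level and on each effector sum, share and ratio below.

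**Figure D1:**
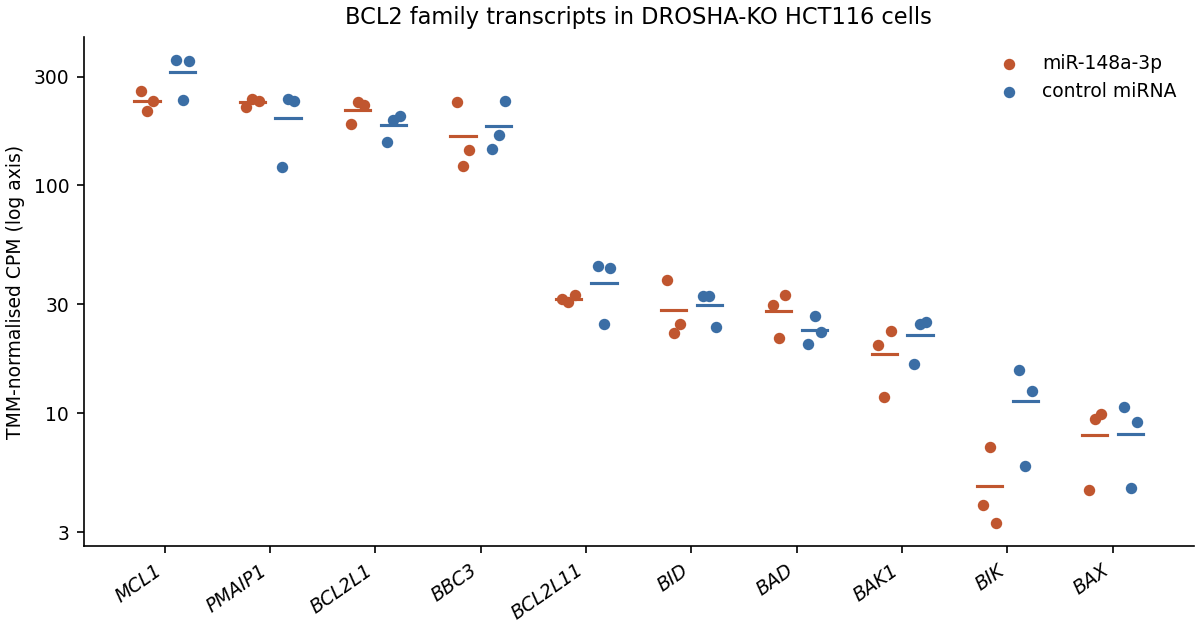
TMM-normalised CPM (log axis) of the 10 genes, ordered by their control mean; points are single libraries (n = 3 per group), with miR-148a-3p to the left of control miRNA, and horizontal lines are group means. MCL1, PMAIP1, BCL2L1 and BBC3 form the upper tier, BAX and BIK lie lowest, and the 2 groups overlap for every gene.

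BAX therefore rested on few reads: 7, 8 and 6 with miR-148a-3p and 11, 4 and 8 with the control. BIK had 6, 6 and 2 reads with miR-148a-3p and 16, 5 and 11 with the control. Both genes fell below the filter on low counts, which left 8921 genes and 8 of the 10 members in the test. No gene overlapping the span of BAX or BIK is annotated in RefSeq. BAD overlaps GPR137, which was counted 16, 11 and 6 times with miR-148a-3p and 11, 19 and 8 times with the control; the use of strand in counting is not given in the sources used here, so reads of that pair may be shared.

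With miR-148a-3p, 0 of the 8 tested members passed the threshold of an edgeR adjusted p below 0.05 over all genes tested, where 0.0112% of all genes passed. At an unadjusted p below 0.05 edgeR had 1 member, MCL1, which was lower; 6.79% of all genes met this, 3.40% lower and 3.40% higher. DESeq2 and limma-voom also called 0 members after adjustment, and at an unadjusted p below 0.05 DESeq2 had 1 of the 10 genes and limma-voom 0. The 2 groups overlapped for all 10 genes, where 12.8% of all genes tested showed no overlap, 6.59% with miR-148a-3p lower and 6.22% with it higher. Fitted values were lower for 5 of the 8 tested members and higher for 3, where 50.5% of all genes were lower. The median log2 change was −0.07 over these 8 members and −0.00386 over all genes. When log2 changes of 0.5 were put into simulated counts, edgeR recovered 6.00% of them, against 41.3% for changes of 1. Every tested member had a fitted change nearer to 0 than 0.5, so the lack of calls does not show that these genes were unchanged. Changes on the log2 scale below give the miR-148a-3p level relative to the control level, and their 95% intervals are not adjusted for the number of genes.

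MCL1, the short-lived anti-apoptotic protein that binds BIM, NOXA and BAK, was measured at 258, 212 and 235 CPM with miR-148a-3p, against 355, 236 and 350 CPM with the control. Control replicate 2 lay among the miR-148a-3p libraries, while the other control libraries were above all of them. The mean was 235 ± 23.0 CPM with miR-148a-3p and 314 ± 67.7 CPM with the control (SD, n = 3 each). The log2 change was −0.42 (SE 0.19, 95% interval −0.81 to −0.02), with an adjusted p = 0.725 by edgeR over all genes. MCL1 thus ranked 485 of 8921 genes by p and did not pass. Under the alternatives its log2 change stayed between −0.59 (without control replicate 2) and −0.32 (without control replicate 1), with no call in any.

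BCL2L1, which encodes BCL-XL, was measured at 186, 231 and 224 CPM with miR-148a-3p, against 155, 193 and 202 CPM with the control. The miR-148a-3p library of the lowest level lay within the control range, and the other miR-148a-3p libraries lay above every control library. Its log2 change was 0.22 (SE 0.19, 95% interval −0.18 to 0.61, adjusted p = 0.883 by edgeR). As a fold of the control level the interval ran from 0.882 to 1.53. With 1 library left out the log2 change lay between 0.10 (without control replicate 1) and 0.31 (without miR-148a-3p replicate 1).

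The count of MCL1 reads for each BCL2L1 read was 1.39, 0.918 and 1.05 with miR-148a-3p, against 2.29, 1.22 and 1.73 with the control. This ratio was chosen after the values were seen, does not depend on library scaling, and has no test. The control library with the lowest ratio lay below the highest miR-148a-3p library. The log2 ratio averaged 0.14 ± 0.30 with miR-148a-3p and 0.76 ± 0.45 with the control (SD, n = 3 each), a difference of −0.62. Without control replicate 1 the difference was −0.40, and without control replicate 2 it was −0.85. The summed level of MCL1 and BCL2L1 was 448 ± 9.42 CPM with miR-148a-3p and 497 ± 63.4 CPM with the control, so the sum differed by less than the spread between the control libraries.

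**Figure D2:**
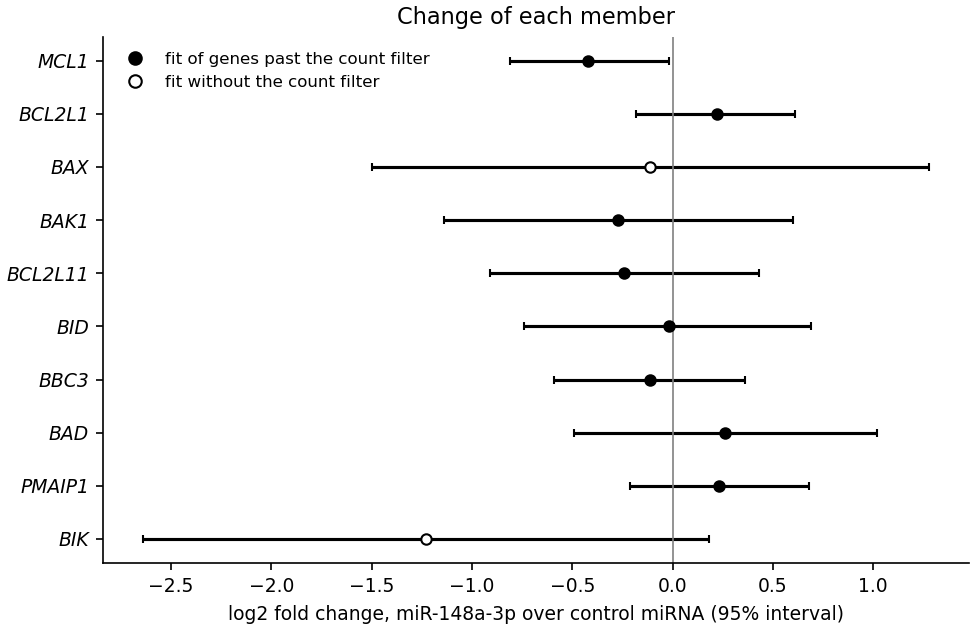
Log2 change of each gene, miR-148a-3p over control miRNA (points), with its 95% interval (bars, edgeR, 3 libraries per group, not adjusted for the number of genes). The interval of MCL1 ends at −0.02 and those of the other 9 genes include 0; open points mark BAX and BIK, fitted without the count filter, whose intervals are the widest.

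Among the effectors, BAK1 was measured at 19.8, 11.8 and 23.0 CPM with miR-148a-3p, against 16.4, 24.5 and 25.0 CPM with the control. Its log2 change was −0.27 (SE 0.43, adjusted p = 0.932 by edgeR), and the interval ran from −1.14 to 0.60. With 1 library left out it lay between −0.45 (without control replicate 1) and −0.05 (without miR-148a-3p replicate 2). BAX was at 4.61, 9.46 and 9.88 CPM with miR-148a-3p, against 10.6, 4.67 and 9.10 CPM with the control. A fit without the count filter gave BAX a log2 change of −0.11 (SE 0.71, adjusted p = 0.989 by edgeR). A doubling or a halving of BAX was not excluded, since the interval ran from −1.50 to 1.28. The BAX value was 0.14 without control replicate 1, and the libraries left out gave −0.37 (control replicate 2) to 0.23 (miR-148a-3p replicate 1). The summed effector level was 26.2 ± 6.02 CPM with miR-148a-3p and 30.1 ± 3.67 CPM with the control.

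The BH3-only activators had lower fitted values in 3 of 3 genes, where 50.5% of all genes were lower, and none passed the threshold. BCL2L11, the reported target of miR-148a in mouse lymphocytes, was measured at 31.6, 30.8 and 32.9 CPM with miR-148a-3p, against 44.3, 24.5 and 43.2 CPM with the control. Its miR-148a-3p libraries lay close together and between the control values. The log2 change was −0.24 (SE 0.33, 95% interval −0.91 to 0.43, adjusted p = 0.917 by edgeR). It was −0.10 without control replicate 1 and −0.47 without control replicate 2. BID was at 38.2, 22.5 and 24.7 CPM with miR-148a-3p, against 32.7, 32.7 and 23.9 CPM with the control, a log2 change of −0.02 (SE 0.35, adjusted p = 0.994 by edgeR). The BID value was 0.05 without control replicate 1, and lay between −0.34 and 0.13 over the libraries left out (miR-148a-3p replicates 1 and 2).

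BBC3 (PUMA), which binds all anti-apoptotic BCL2 proteins, was measured at 231, 122 and 143 CPM with miR-148a-3p, against 144, 166 and 235 CPM with the control. Each group held 1 high library, replicate 1 with miR-148a-3p and replicate 3 with the control. The log2 change was −0.11 (SE 0.23, adjusted p = 0.942 by edgeR), and leaving out a single library moved it between −0.46 (miR-148a-3p replicate 1) and 0.12 (control replicate 3), with −0.25 without control replicate 1. The coefficient of variation of BBC3 between libraries was 34.9% with miR-148a-3p and 26.2% with the control. Counting error alone gives 7.45% and 7.75% at the mean read number of each group, leaving unequal depth aside.

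Among the BH3-only sensitizers, PMAIP1 (NOXA), which binds MCL1 and promotes its degradation, was measured at 221, 240 and 235 CPM with miR-148a-3p, against 120, 239 and 234 CPM with the control. Control replicate 1 alone was low, and the other 5 libraries lay within 221 and 240 CPM. The log2 change was 0.23 (SE 0.22, 95% interval −0.21 to 0.68, adjusted p = 0.884 by edgeR), and without control replicate 1 it was −0.03, against 0.39 without control replicate 2. Control replicate 1 held 0.339 PMAIP1 reads for each MCL1 read, against 0.669 to 1.13 in the other libraries. Its MCL1 level, the highest of the 6 libraries at 355 CPM, was close to the 350 CPM of control replicate 3, where the ratio was 0.669.

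BAD was at 29.7, 21.3 and 32.9 CPM with miR-148a-3p, against 20.2, 26.8 and 22.8 CPM with the control, a log2 change of 0.26 (SE 0.37, adjusted p = 0.920 by edgeR). It was 0.17 without control replicate 1 and 0.42 without miR-148a-3p replicate 2. BIK was at 3.95, 7.10 and 3.29 CPM with miR-148a-3p, against 15.4, 5.83 and 12.5 CPM with the control. Control replicate 2 lay below the highest miR-148a-3p library, and the other control libraries lay above all 3 miR-148a-3p libraries. The fit without the count filter gave BIK the log2 change farthest from 0 among the 10 genes, −1.23 (SE 0.72, 95% interval −2.64 to 0.18, adjusted p = 0.855 by edgeR over the 15659 genes). It rests on 46 reads over all 6 libraries, and was −0.93 without control replicate 1.

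The precision of these values followed the read numbers. The 4 abundant genes, with 1039 to 1592 reads over the 6 libraries, had standard errors of 0.19 to 0.23 on the log2 scale, and BAX and BIK, with 44 and 46 reads, had 0.71 and 0.72. For BAX the coefficient of variation between control libraries, 38.0%, was close to the 36.1% of counting error alone, whereas for MCL1 it was 21.6% against 5.84%. For PMAIP1 it was 34.0% in the control group, against 7.48% from counting, and 4.35% in the miR-148a-3p group, against 6.64%. These counting errors are those at the mean read number of a group, leaving unequal depth aside.

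Summed over the 10 genes, the level was 965 ± 57.8 CPM with miR-148a-3p and 1009 ± 132 CPM with the control (SD, n = 3 each). MCL1, BCL2L1, BBC3 and PMAIP1 together held 84.7% to 88.7% of the 10 genes' reads in every library. The anti-apoptotic pair held 43.4%, 48.8% and 47.6% of these reads with miR-148a-3p, and 55.8%, 45.0% and 47.7% with the control. Control replicate 1 had the highest share, and the other 5 libraries lay between 43.4% and 48.8%. The 6 BH3-only genes held 54.3%, 48.9% and 49.0% with miR-148a-3p, and 41.3%, 52.0% and 49.4% with the control.

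The effectors held 2.35% to 3.41% of the 10 genes' reads with miR-148a-3p and 2.94% to 3.06% with the control. For each effector read there were 18.2, 20.8 and 14 anti-apoptotic reads with miR-148a-3p, and 18.9, 14.7 and 16.2 with the control. The log2 of this ratio averaged 4.12 ± 0.29 with miR-148a-3p and 4.05 ± 0.18 with the control, a difference of 0.08 that is smaller than either SD. The log2 ratio of anti-apoptotic to BH3-only reads was −0.12 ± 0.17 with miR-148a-3p and 0.06 ± 0.34 with the control, a difference of −0.18 that was 0.01 without control replicate 1. These ratios were computed without a test. They compare transcripts counted at their 3′ ends and not proteins.

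**Figure D3:**
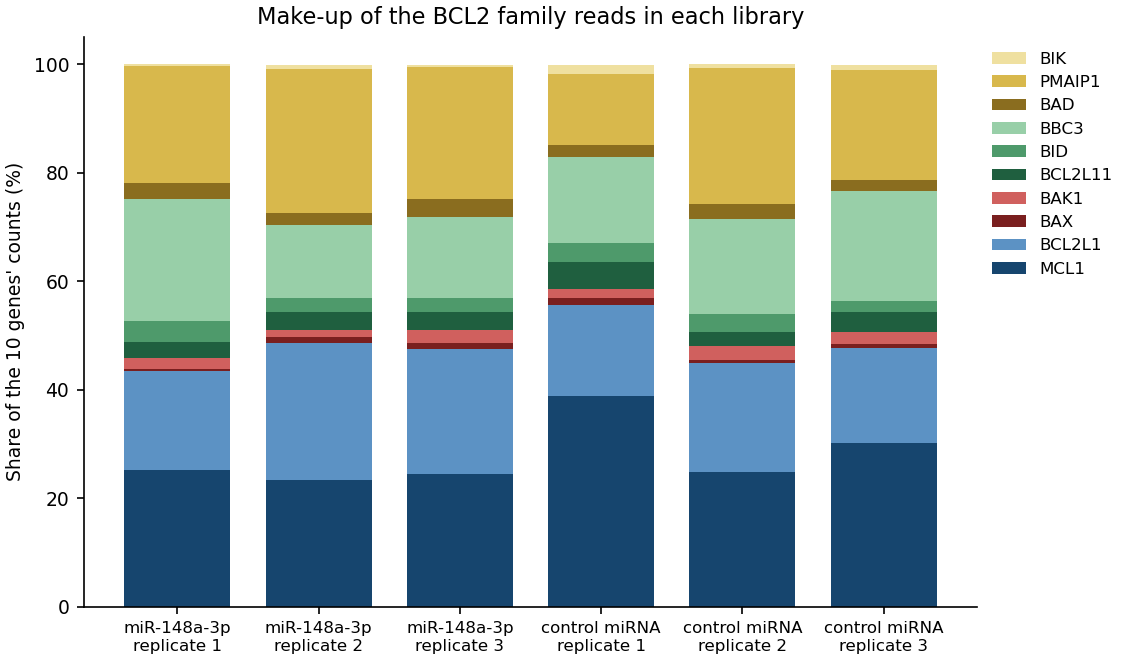
Share of the 10 genes' reads (%) taken by each gene, 1 bar per library, with the 3 miR-148a-3p libraries left of the 3 control libraries. The anti-apoptotic pair MCL1 and BCL2L1 (blue) takes 43.4% to 55.8%, the effectors BAX and BAK1 (red) 2.35% to 3.41%, and the highest anti-apoptotic share is in control replicate 1.

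Other BCL2 family genes were mostly scarce. By control mean, BNIP3L (131 CPM), BCL2L13 (67.9 CPM) and BNIP3 (35.1 CPM) lay within the range of the members. So did BCL2L2 (10.4 CPM) and HRK (9.94 CPM), near its lower end. BCL2 itself, the founding anti-apoptotic gene and a reported miR-148a target in colorectal cells, had 1, 1 and 0 reads with miR-148a-3p and 1, 1 and 0 with the control. BCL2A1 and BCL2L10 had no read in any library. BCL2L2 (BCL-W) was counted 12, 20 and 5 times with miR-148a-3p and 19, 11 and 0 times with the control, a log2 change of 0.30 (SE 0.67, adjusted p = 0.949 by edgeR). Of the anti-apoptotic genes counted here, MCL1 and BCL2L1 therefore held nearly all reads in both groups.

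Among other pro-apoptotic relatives, 3 of 8 were tested, and each had a lower fitted value that did not pass, where 50.5% of all genes were lower. BNIP3L (NIX), a mitophagy receptor, was at 129, 88.7 and 114 CPM with miR-148a-3p, against 143, 119 and 132 CPM with the control (log2 change −0.24, SE 0.21, adjusted p = 0.878 by edgeR). BNIP3, its hypoxia-induced relative, had −0.14 (SE 0.32) and BCL2L13, another mitophagy receptor, −0.04 (SE 0.26). The BH3-only gene HRK had 9, 7 and 3 reads with miR-148a-3p and 19, 5 and 5 with the control. BMF, a BH3-only gene, had 5, 1 and 0 reads with miR-148a-3p and 1, 0 and 0 with the control. BOK, an effector-like gene, was counted 15, 5 and 1 times with miR-148a-3p and 3, 7 and 4 times with the control, BCL2L15 had 1 to 9 reads per library, and BCL2L14 had none.

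Apoptosis genes around the family were read in 10 lists of 104 genes, of which 88 were tested. Of these, 45 had a higher and 43 a lower fitted value, with a median log2 change of 0.01, and edgeR called 0 (DESeq2 and limma-voom also 0). At an unadjusted p below 0.05 edgeR had 3 higher and 1 lower. The groups did not overlap for 5 of the 88, or 5.68%, below the 12.8% of all genes tested.

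In the outer mitochondrial membrane, VDAC3, an anion channel, was measured at 153, 166 and 165 CPM with miR-148a-3p, against 89.6, 141 and 114 CPM with the control, without overlap. Its log2 change was 0.49 (SE 0.21, adjusted p = 0.682 by edgeR). VDAC2, which binds BAK and BAX, had 0.19 (SE 0.21), and the mitofusins MFN1 and MFN2 had −0.33 (SE 0.33) and −0.43 (SE 0.24). Of 7 genes in that list 4 had higher and 3 lower fitted values.

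In the list of the apoptosome and caspases, 8 of 13 tested genes had a higher fitted value, with a median of 0.10. CYCS, which encodes cytochrome c, was at 196, 283 and 254 CPM with miR-148a-3p, against 192, 202 and 181 CPM with the control (log2 change 0.34, SE 0.19, adjusted p = 0.746 by edgeR). CASP8, the caspase that cleaves BID, had −0.37 (SE 0.30), and AIFM1, a mitochondrial flavoprotein, −0.29 (SE 0.28). CASP9, the initiator caspase of the apoptosome, had 18, 13 and 2 reads with miR-148a-3p and 9, 1 and 2 with the control, and was not tested. Of the 5 tested inhibitors of apoptosis 3 had higher values, with BIRC5 (survivin) at 0.29 (SE 0.20), XIAP at 0.16 (SE 0.26), BIRC6 at −0.22 (SE 0.28) and BIRC3 at −0.08 (SE 0.25).

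The genes that set MCL1 protein turnover showed no call among 7 tested, with a median of −0.03. The ubiquitin ligase subunit FBXW7 was at 173, 169 and 193 CPM with miR-148a-3p, against 144, 142 and 159 CPM with the control, without overlap (log2 change 0.26, SE 0.19, adjusted p = 0.823 by edgeR). The deubiquitinase USP13 had 0.43 (SE 0.26), the mitochondrial ligase MARCHF5 −0.30 (SE 0.32) and BTRC −0.11 (SE 0.26). Among 19 kinases and 14-3-3 proteins that act on BAD or BIM, 9 had higher and 10 lower fitted values. RPS6KA1, a kinase of BAD, had 0.86 (SE 0.38, adjusted p = 0.709 by edgeR), PRKACA, the catalytic subunit of protein kinase A, 0.48 (SE 0.26), PIM1 −0.36 (SE 0.21) and the 14-3-3 gene YWHAZ −0.29 (SE 0.17).

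Of 10 tested transcription factors that control BH3-only genes, 6 had higher and 4 lower fitted values. EGR1, an immediate-early factor, was at 75.8, 103 and 226 CPM with miR-148a-3p, against 55.9, 85.2 and 61.4 CPM with the control. The highest value was in miR-148a-3p replicate 3, and miR-148a-3p replicate 1 lay within the control range. Its log2 change was 0.95 (SE 0.30, adjusted p = 0.408 by edgeR). ATF4, which drives PMAIP1 and BBC3 under stress, had 0.32 (SE 0.19) and ATF3 −0.57 (SE 0.34).

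In the death receptor list 4 genes had higher and 4 lower values. RIPK1, the kinase that joins death receptors to survival or death signalling, was at 34.9, 28.4 and 21.4 CPM with miR-148a-3p, against 53.9, 54.8 and 48.9 CPM with the control, without overlap. Its log2 change was −0.85 (SE 0.30, adjusted p = 0.563 by edgeR). TNFRSF1A had −0.17 (SE 0.25), TNFAIP3 −0.32 (SE 0.54) and TRADD 0.23 (SE 0.45).

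**Figure D4:**
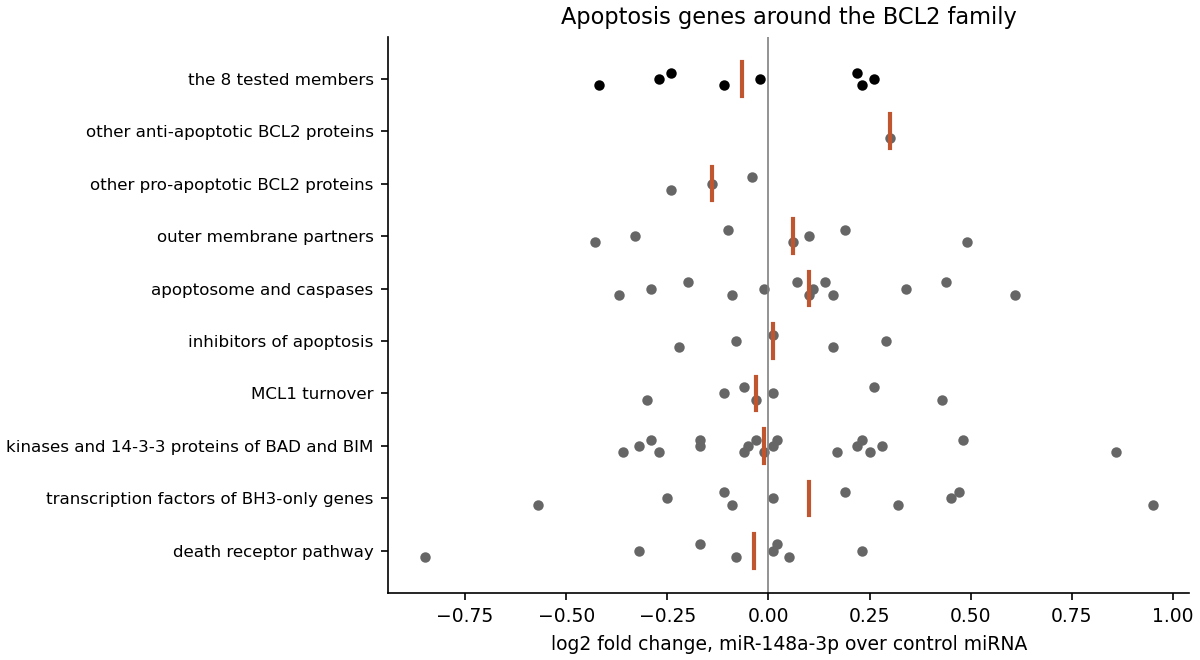
Log2 change, miR-148a-3p over control miRNA, of each tested gene (points) in the 8 tested members and in 9 of the 10 lists of apoptosis genes around them, with the list median as a vertical orange bar. EGR1 (0.95), RPS6KA1 (0.86) and RIPK1 (−0.85) lie farthest from 0, list medians lie between −0.14 and 0.10 except for the 1 gene of the other anti-apoptotic list, and no gene passed the threshold.

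The promoters of the members were read from RefSeq (GRCh38.p14) as stretches of 300 bases, 250 before to 50 after a start site. Of the 10 genes 8 matched, with 14 start sites, and MCL1 and BIK had no promoter stretch. Their G and C content ran from 48.0% at BBC3 to 78.0% at a start site of BID, against a median of 58.7% and quartiles of 47.0% and 68.0% over 35116 promoters. The number of CpG dinucleotides was 42 at PMAIP1, 39 at BCL2L11 and 38 at BAX, but 5 at BBC3 and 7 at BAK1, against a median of 14. By CpG number PMAIP1 and BBC3, both in the abundant tier, thus lay at opposite ends among the members with a promoter. BCL2L1, also in that tier, had 20 and 16 at its start sites. BCL2L11 and BAX, the latter in the lowest pair, lay beside PMAIP1.

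Motifs searched on both strands were the E-box CACGTG, the ATF core TGACGT, the CRE TGACGTCA that contains this core, the TATA box TATAAA, the SP box GGGCGG, the CCAAT box, the ETS motif CCGGAAG, the forkhead motif GTAAACA and the E2F motif TTTCGCGC. The motifs were chosen with their matches known. Counts below are of the 14 start sites, and those of 1 gene share sequence. CACGTG, the E-box of MYC and related factors, was at 4 start sites, of BAX, BBC3 and BID (28.6%), and in 7.26% of all promoters. BAX held it at 4 places, 138, 93, 45 and 14 bases before the start site. TGACGT, the core of ATF and CREB sites, was at 3 start sites, of PMAIP1 and BAD (21.4%), and in 7.98% of all promoters. GGGCGG was at 11 start sites (78.6%), and in 45% of all promoters. The CCAAT box was at 6 start sites (42.9%), and in 34.6% of all promoters. The TATA box, the ETS motif and the forkhead motif were each at 1 start site (7.14%), and in 11.5%, 10.3% and 3.42% of all promoters. The CRE and the E2F motif were at 0 start sites, and in 1.85% and 0.515% of all promoters. The stretches at BAX, in the lowest pair of members, and PMAIP1, in the abundant tier, are shown on the plus strand, with the motif in capitals (at PMAIP1 its reverse complement).
BAX chr19:48954725-48954754: tcattggacagtCACGTGacgggaccaaac
BAX chr19:48954770-48954799: ggcaggtgcggtCACGTGacccggcggcgc
BAX chr19:48954818-48954847: ttgcggggcggcCACGTGaaggacgcacgt
BAX chr19:48954849-48954878: cagcggggctctCACGTGacccgggcgcgc
PMAIP1 chr18:59899928-59899957: tctagtttccctACGTCAccagggaagttc
MYC was at 36.3, 27.2 and 29.6 CPM with miR-148a-3p, against 34.7, 31.5 and 46.6 CPM with the control (log2 change −0.25, SE 0.32, adjusted p = 0.913 by edgeR), with overlapping groups. A match describes the letters in these stretches and not binding.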

How the data were processed

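The values deposited by the authors are unnormalized counts, by gene symbol in 6 mRNA libraries and by microRNA isoform in 1 small RNA library. Oligo-dT primed 3′ end libraries were made from 500 ng of total RNA, per the labels' protocols. Cutadapt, STAR, Bowtie2 and GRCh38 are named in the submitters' processing notes without versions or roles. How reads were assigned to genes, and whether strand was used, is not given in the sources used here. A gene missing from a library's list was read as 0, and isoforms with a blank count were left out.

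Counts were tested with edgeR 4.0.16 (R 4.3.3): TMM scaling, filterByExpr (8921 of 15659 genes kept), quasi-likelihood F test on group alone, Benjamini-Hochberg adjustment over all genes tested, threshold 0.05. BAX and BIK did not pass the filter and were fitted without it. Alternatives were other size factors, filters and tests (DESeq2 1.42.0, limma-voom in limma 3.58.1), the replicate number as a block, and each library left out. The scripts were checked on simulated counts, with 150 planted changes of each size. Recovery was 6.00% for a planted log2 change of 0.5, 41.3% for 1 and 87.3% for 2. Wilson intervals are from scipy 1.17.1. No label ties replicates to separate cultures; p-values then reflect only how these libraries vary, possibly for technical reasons. An exact permutation test of 3 against 3 cannot go below p = 0.1 and was not used.

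Genes named were all 10 members, up to 4 genes per list with the smallest p, and other BCL2 proteins; MYC and CASP9 were named after their values were seen. The members and lists were chosen with earlier results of these data known. Some genes, and a list and a motif tied to them, are not reported here.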

Additional observations from a re-analysis of the deposited data

How the results depend on the processing

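Members called were 0 under all 13 alternatives, as were genes of the surrounding apoptosis lists (a count added after seeing the data). Over all genes, edgeR called 1; DESeq2 called 2, limma-voom 3, edgeR with the replicate block 3 and without the count filter 18, and 1 to 26 with a library left out, 26 without control miRNA replicate 1. The members' log2 fold changes kept their sign in 115 of 125 refits. The sign turned on leaving out a library for BAX (−0.37 to 0.23), BID (−0.34 to 0.13), BBC3 (−0.46 to 0.12) and PMAIP1 (−0.03 to 0.39), and for BID with limma-voom (0.00, adjusted p = 0.999); the cause was not tested. The anti-apoptotic to effector log2 ratio differed between groups by −0.05 to 0.24 with a library left out. Deviations of same-numbered libraries correlated at 0.133, 0.0930 and −0.00185, and those of different-numbered ones at −0.133 to 0.0274. Since not every same-numbered pair exceeded 0.1, and both libraries numbered 3 correlated best with a library numbered 2, the block is not taken as a pairing. Of 3 pseudogenes or antisense genes named after a member (BAK1P1, BAK1P2 and BCL2L1-AS1), 0 are listed in the counts, so adding their reads gave no value. Depth limits BAX and BIK most, and for the other members too the lack of calls does not show an absence of change.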
